A study of Mus musculus with 16 samples.

Results

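The genes described here encode the constitutive proteasome: every row of the expression table whose symbol begins with Psma, Psmb, Psmc or Psmd followed by a digit, leaving out pseudogene symbols and the 3 interferon-inducible subunits Psmb8, Psmb9 and Psmb10. The rule took 37 of 55146 genes. RNA was measured in mammary tumours of MMTV-PyMT mice, in which a mammary tumour virus promoter drives the polyoma middle T oncogene in mammary epithelium. Tumours of transgenic donors aged 12 weeks were grown in FVB hosts, which keep their own immune system, after transplantation to the 4th mammary fat pad. The hosts then received vehicle, anti-PD-L1 (an antibody against a ligand of the T cell checkpoint receptor PD-1) at 5 mg/kg 2 times a week, sonidegib (an inhibitor of the Hedgehog signal transducer Smoothened) at 20 mg/kg each day, or both agents, for 28 days, with 4 libraries a group. Each tumour thus carries the oncogene, vehicle-treated controls included. The labels do not say how many donor tumours were used or whether libraries of a group came from separate hosts, so p-values measure the spread between these libraries only.

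The proteasome degrades proteins that carry ubiquitin chains. Its 20S core is a barrel of outer alpha rings, which gate the entry, and inner beta rings, in which Psmb6, Psmb7 and Psmb5 carry the caspase-like, trypsin-like and chymotrypsin-like active sites. The 19S regulatory particle caps the core: its base holds the Psmc ATPases, which unfold substrates, with the scaffold and receptor subunits Psmd1, Psmd2 and Psmd4, and its lid removes the ubiquitin chain. When degradation falls short, the transcription factor NFE2L1 is released from the endoplasmic reticulum and raises many subunit genes together through antioxidant response elements, and in tissues under interferon the immunoproteasome subunits take the places of the constitutive active ones. Among the 37 genes, 33 are subunits, Psmd5, Psmd9 and Psmd10 are chaperones of base assembly, and Psmc3ip is a cofactor of meiotic recombination that the symbol rule takes although it is no part of the particle.

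Promoters of 30 of the 37 genes were found in the RefSeq table (GRCm38.p6, 250 bases before to 50 after the start), and Psma8, Psmb1, Psmb2, Psmb7, Psmc3, Psmd3 and Psmd7 have no entry. The motifs of 3 factors were searched on both strands, because NFE2L1, NF-Y and ETS factors are known to act on promoters of this kind. The core of the antioxidant response element, TGACNNNGC, was present in 5 of the 30 genes (Psmb5, Psmb6, Psmc6, Psmd12 and Psmd9) and in 14% of all genes in the table. The NF-Y motif CCAAT was present in 13 of 30 genes against 41.1% of all genes, and the ETS motif CCGGAAGT in 6 of 30 (Psma6, Psmc1, Psmc2, Psmd12, Psmd13 and Psmd6) against 4.31%. Psma6 and Psmc2 have 2 entries each, and within an entry 0 matches of one motif overlapped a match of another. Each stretch holds 60 bases from before the start, 5′ to 3′ on the strand of the gene, with the motif in capitals, and the genes were chosen to show each motif beside the expression values given later.
Psmb5: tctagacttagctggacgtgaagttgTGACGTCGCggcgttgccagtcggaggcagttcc
Psmb6: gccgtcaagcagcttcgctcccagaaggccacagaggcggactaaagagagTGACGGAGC
Psmc6: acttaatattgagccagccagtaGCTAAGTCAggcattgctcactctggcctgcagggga
Psmd9: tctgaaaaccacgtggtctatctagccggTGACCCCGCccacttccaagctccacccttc
Psmc2: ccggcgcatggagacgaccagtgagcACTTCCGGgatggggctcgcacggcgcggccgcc
Psmd6: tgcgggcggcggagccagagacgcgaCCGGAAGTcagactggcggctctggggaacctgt
Psma1: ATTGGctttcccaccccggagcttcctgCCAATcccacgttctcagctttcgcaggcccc
Psma3: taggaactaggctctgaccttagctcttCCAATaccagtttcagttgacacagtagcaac
The first 4 show the antioxidant response element core, Psmc2 and Psmd6 the ETS motif, and Psma1 and Psma3 CCAAT; in Psmc6, Psmc2 and at the first of the 2 sites of Psma1 the capitals read the reverse complement of the motif. The stretches lie for Psmb5 at chr14:54618009-54618068 on the minus strand, Psmb6 at chr11:70525297-70525356 on the plus strand, Psmc6 at chr14:45329574-45329633 on the plus strand and Psmd9 at chr5:123228130-123228189 on the plus strand. Those of the other genes are Psmc2 at chr5:21785164-21785223 on the plus strand, Psmd6 at chr14:14120957-14121016 on the minus strand, Psma1 at chr7:114276183-114276242 on the minus strand and Psma3 at chr12:70974456-70974515 on the plus strand. A match is a match of letters only, and no binding was measured.

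Expression is given as FPKM, that is fragment numbers scaled to transcript length and library size, and tests were run on log2(FPKM + 1) over 15105 genes that reached 1 FPKM in at least 4 libraries. Of the 37 genes, 35 passed this filter. Depth is not given, and a rough estimate from the smallest FPKM steps was 34.2 to 57.3 M fragments a library. The labelled tumour epithelium was present in every library, with all 6 epithelial markers measured and a summed level of 508 to 2107 FPKM over all libraries. Vehicle replicate 3 stood apart: its median-of-ratios size factor was 0.466 against 0.903 to 1.20 in the other libraries, and it held the lowest of the 16 values for 65.0% of all tested genes. Among the proteasome genes it was the lowest for 34 of 35, the exception being Psmd11. Between libraries of one group, Pearson's r of log2 values across genes was 0.880 to 0.968, and no 2 libraries were copies of each other. Because these are bulk tumours, fewer cells of a type and less RNA per cell cannot be told apart.

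The particle was well expressed throughout. The median over the 16 libraries was highest for the active-site subunit Psmb6 (164 FPKM), followed by the alpha subunit Psma7 (149 FPKM), Psmb4 (111 FPKM), Psmb3 (93.2 FPKM) and Psmb2 (84.4 FPKM). Subunits of the core filled the first 8 places, and the first of the regulatory particle was the ATPase Psmc3 at 60.7 FPKM. The lowest of the tested subunits was the ATPase Psmc4 at 21.6 FPKM, and the ranges of neighbours in this order overlapped widely, as with Psmb6 (78.9 to 283 FPKM) and Psma7 (50.0 to 199.995 FPKM). The base chaperones were lower, with medians of 13.6 FPKM for Psmd5, 10.5 FPKM for Psmd9 and 3.82 FPKM for Psmd10, and Psmc3ip stood at 6.29 FPKM.

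The tissue-restricted paralogs were near 0 in every library. Psma8, the alpha subunit of the testis proteasome, lay between 0 and 0.113 FPKM, with group means of 0.0404 ± 0.0534 FPKM in vehicle and 0.0579 ± 0.0426 FPKM in the combination (SD, n = 4). Psmb11, the thymus-specific beta subunit, lay between 0 and 0.0517 FPKM. Neither was tested. Rows of 4 pseudogenes named after members (Psmb5-ps, Psmb6-ps, Psmb6-ps2 and Psmb7-ps2) reached at most 0.114 FPKM, but how reads shared with pseudogenes were assigned is not given. Among pairs that share over 200 exon bases, Psmd9 shares 1849 with the long noncoding Gm26745 on the opposite strand and Psmd1 shares 301 with Gm21972 on its own strand. Exons of Psmb7, Psmc3ip, Psmd13, Psmd1 and Psmc3 share 405, 385, 342, 252 and 215 bases with Nek6, Mlx, Sirt3, Htr2b and Slc39a13 on the opposite strand, and since the use of strand in the quantification is not stated, reads of these pairs cannot be told apart.

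With each agent alone no proteasome gene passed the threshold. Anti-PD-L1 against vehicle gave 0 of 35 by limma (all tested genes: 0% called), with 15 of 35 at an unadjusted p under 0.05 and a smallest adjusted p of 0.158. The median log2 difference of the 35 genes was 0.56, beside 0.30 over all tested genes. Sonidegib against vehicle likewise gave 0 of 35 (all tested genes: 0%), with 19 of 35 at an unadjusted p under 0.05, and a median of 0.70 beside 0.33. Over all tested genes 24.6% had an unadjusted p under 0.05 with anti-PD-L1 and 27.3% with sonidegib. These medians depended on the vehicle libraries: without vehicle replicate 3 they were 0.24 beside 0.12 over all genes for anti-PD-L1 and 0.37 beside 0.15 for sonidegib, and under median-of-ratios scaling they were 0.16 beside 0.00 and 0.29 beside 0.01. Without vehicle replicate 4, 18 proteasome genes were called with anti-PD-L1 and 18 with sonidegib, in fits that called 26.2% and 26.5% of all genes.

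The combination against vehicle was the 1 comparison with called proteasome genes: 10 of 35 rose and none fell, while 10.3% of all tested genes rose and 11.3% were called in either direction. In the alpha ring Psma1, Psma3, Psma4 and Psma6 rose, 4 of 7 tested members. In the beta ring Psmb1 and Psmb7 rose, 2 of 7. In the regulatory particle 2 of 17 subunits rose, the ATPase Psmc6 and the lid subunit Psmd6, and outside the particle the chaperone Psmd5 and the recombination cofactor Psmc3ip rose. The median log2 difference was 0.77 over the 35 genes and 0.26 over all tested genes. Under median-of-ratios scaling both medians shifted down, to 0.45 and 0.01, and 13 genes were called (18.4% of all genes), with Psma2, Psmd1 and Psmd14 in addition. Without vehicle replicate 3 the medians were 0.36 beside 0.07.

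These calls rested on a few libraries. Leaving out vehicle replicate 1, 2 or 3, or combination replicate 2 or 4, left 0 of 35 called by limma, although 24, 18, 17, 19 and 18 genes had an unadjusted p under 0.05 in these fits. The same fits called 0.0665%, 0.04%, 0.0199%, 0.0534% and 0.02% of all genes, so the loss of calls was not particular to the proteasome genes. Leaving out combination replicate 3 left 5 (3.45% of all genes called), and leaving out vehicle replicate 4 or combination replicate 1 gave 22 and 16, in fits that called 33% and 28.2% of all genes. With combination replicates 2 and 4 both left out, a choice made after seeing the data, 0 were called (0% of all genes) and 3 had an unadjusted p under 0.05. Removing the trend of each library on transcript GC content left 2 of 34, Psma1 and Psmc3ip (3.85% of all genes called). Testing every gene without a filter left 0 (0.021% of all genes called), with 20 at an unadjusted p under 0.05.

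**Figure D1:**
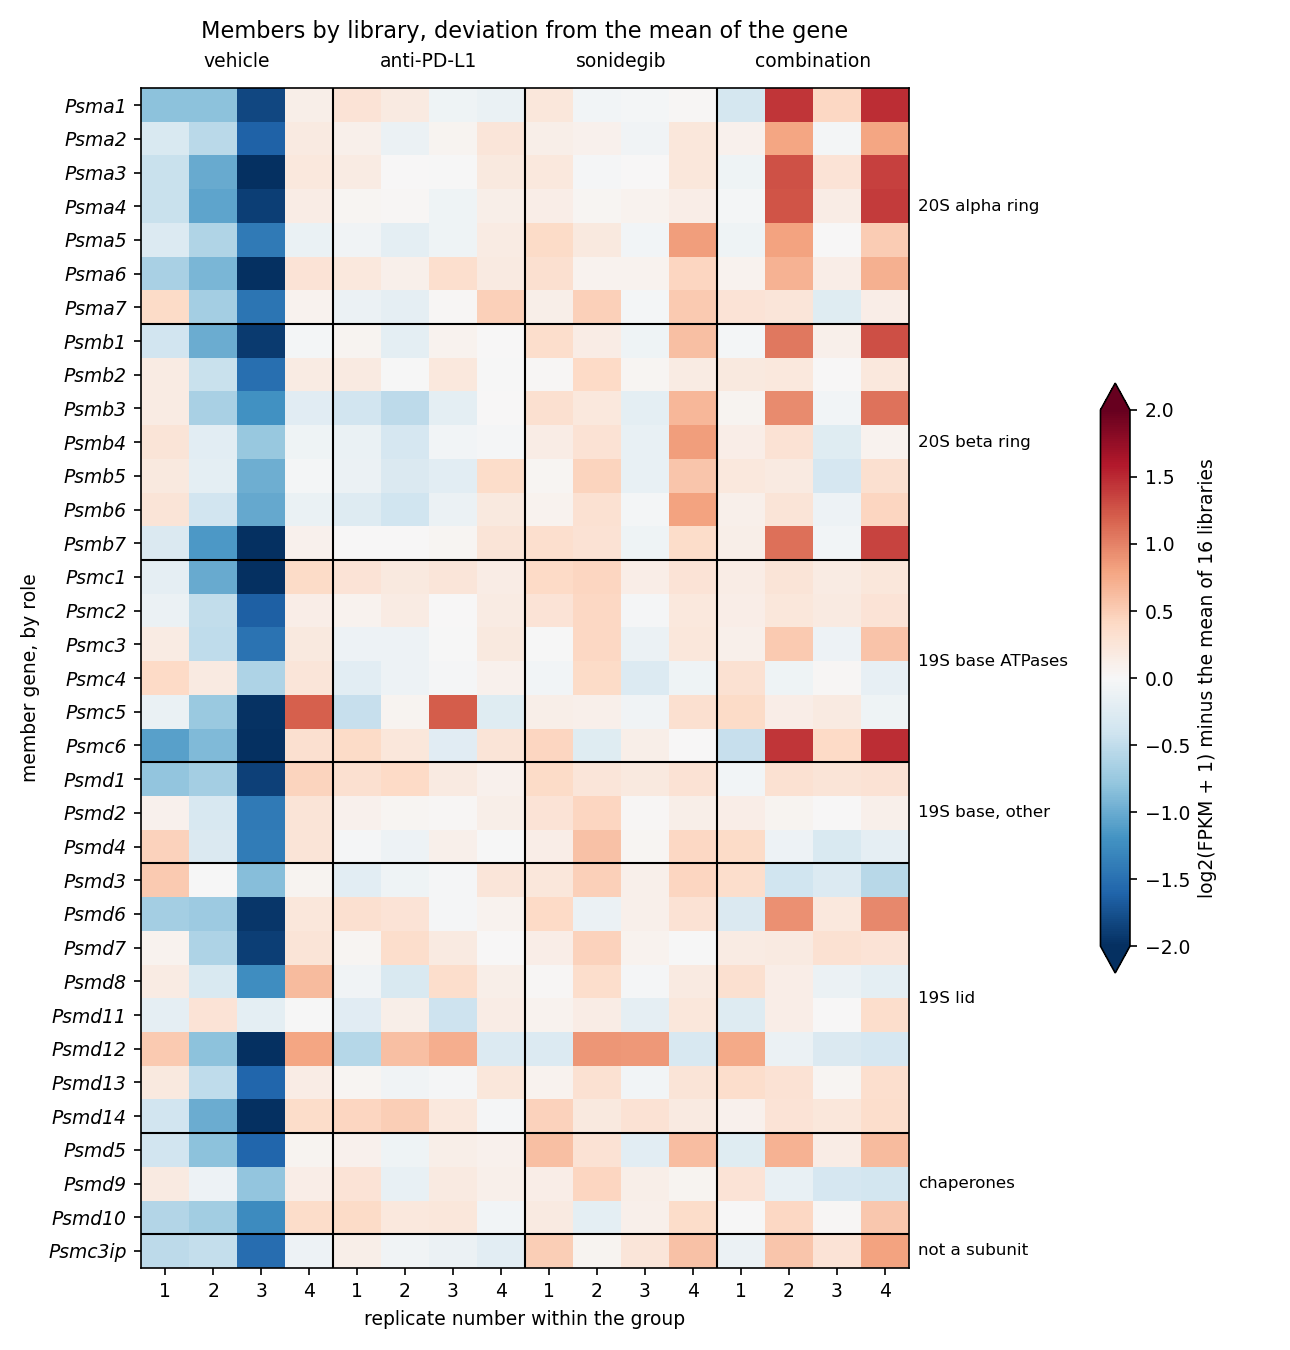
Heat map of the 35 tested genes (rows, by role) in the 16 libraries (columns, by group and replicate number); colour is log2(FPKM + 1) minus the mean of the gene over 16 libraries, with values beyond 2 in either direction at the darkest shade. Vehicle replicate 3 is the lowest library for 34 genes, and combination replicates 2 and 4 hold the 2 highest values for 13.

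The members with the largest and the smallest difference of each role show how unequal the particle was. Psma3, an alpha ring subunit (ENSMUSG00000060073.9, chr12:70974621-70996347, plus strand), stood at 52.4, 35.2, 13 and 83.1 FPKM in the 4 vehicle libraries, 80.4, 71.7, 71.3 and 81.9 FPKM under anti-PD-L1, 82.9, 70.6, 72.1 and 83.6 FPKM under sonidegib and 67.5, 174, 86.4 and 186 FPKM under the combination. Combination replicates 2 and 4 were far above every other library, replicates 1 and 3 lay near the single-agent libraries, and vehicle replicate 4 lay between these 2. The log2 difference was 1.61 ± 0.43 (SE, n = 4 a group, limma adjusted p = 0.0357). Psma1, which adjoins it in the ring (ENSMUSG00000030751.18, chr7:114264606-114276118, minus strand), stood at 31.5, 31.3, 15.2 and 60.8 FPKM in the 4 vehicle libraries, 67.8, 64.0, 52.6 and 51.0 FPKM under anti-PD-L1, 66.0, 54.3, 54.8 and 56.8 FPKM under sonidegib and 44.0, 152, 74.9 and 159 FPKM under the combination. Its pattern over libraries was alike, with a difference of 1.58 ± 0.39 on the log2 scale (limma adjusted p = 0.0353, the smallest of the 35).

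The other called alpha subunits repeated this split, on a smaller scale in Psma6. Psma4, another subunit of the gate-forming ring (ENSMUSG00000032301.13, chr9:54950790-54958030, plus strand), stood at 42.6, 27.6, 15 and 64.4 FPKM in the 4 vehicle libraries, 59.9, 58.9, 54.8 and 63.3 FPKM under anti-PD-L1, 64.2, 59.6, 61.2 and 63.6 FPKM under sonidegib and 56.4, 141, 64.3 and 155 FPKM under the combination, with a log2 difference of 1.50 ± 0.38 (limma adjusted p = 0.0357). Psma6 (ENSMUSG00000021024.14, chr12:55384222-55418454, plus strand) stood at 27.7, 23.0, 10.1 and 53.5 FPKM in the 4 vehicle libraries, 51.0, 47.3, 56.0 and 50.3 FPKM under anti-PD-L1, 55.0, 46.4, 46.5 and 59.8 FPKM under sonidegib and 46.2, 71.7, 48.2 and 72.5 FPKM under the combination, with a difference of 1.22 ± 0.35 (limma adjusted p = 0.0382). In both genes vehicle replicate 4 was level with the single-agent libraries, so the vehicle and treated groups overlapped. Psma2 showed 33.0, 54.4, 30.2 and 54.2 FPKM in the combination and 25, 21.1, 9.46 and 35.1 FPKM in vehicle, and its adjusted p of 0.0501 was the nearest outside the threshold.

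Psma7, the most abundant alpha subunit (ENSMUSG00000027566.15, chr2:180036374-180042433, minus strand), stood at 183, 86.6, 50.0 and 146 FPKM in the 4 vehicle libraries, 129, 124, 143 and 194 FPKM under anti-PD-L1, 151, 194, 136 and 199.995 FPKM under sonidegib and 169, 165, 118 and 154 FPKM under the combination. All 4 groups overlapped, and the log2 difference of 0.52 ± 0.34 did not pass the threshold (limma adjusted p = 0.294). Psma5 was the only gene of the 35 with every combination library above every vehicle library (49.0 to 91.6 against 18.9 to 47.4 FPKM), a pattern seen in 3.12% of all tested genes, and its adjusted p of 0.0537 lay just outside the threshold. Its sonidegib libraries (49.9 to 93.0 FPKM) were also all above vehicle, as in 2 of the 35 genes. The share of all tested genes with that pattern under sonidegib was not counted.

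The 3 active-site subunits did not move alike. Psmb7, the trypsin-like site (ENSMUSG00000026750.6, chr2:38588036-38644087, minus strand), stood at 56.1, 30.3, 12.3 and 72.8 FPKM in the 4 vehicle libraries, 69.1, 68.9, 70.1 and 82.4 FPKM under anti-PD-L1, 87.0, 84.2, 64.3 and 88.9 FPKM under sonidegib and 74.2, 147, 65.8 and 176 FPKM under the combination. The 2 highest values were again combination replicates 2 and 4, and the difference was 1.56 ± 0.43 (limma adjusted p = 0.0369). Psmb6, the caspase-like site (ENSMUSG00000018286.6, chr11:70525367-70527858, plus strand), stood at 193, 123, 78.9 and 147 FPKM in the 4 vehicle libraries, 135, 123, 149.5 and 186 FPKM under anti-PD-L1, 170.3, 200.2, 157 and 283 FPKM under sonidegib and 173, 193, 150.3 and 219 FPKM under the combination. Its highest value was in sonidegib replicate 4, the groups overlapped, and the difference of 0.49 ± 0.30 was not called (limma adjusted p = 0.260). Psmb5, the chymotrypsin-like site that bortezomib binds (ENSMUSG00000022193.7, chr14:54614119-54618022, minus strand), stood at 60.8, 46.2, 26.5 and 51.4 FPKM in the 4 vehicle libraries, 48.7, 43.0, 45.4 and 68.8 FPKM under anti-PD-L1, 54.3, 72.8, 47.4 and 78.3 FPKM under sonidegib and 61.4, 59.96, 41.9 and 66.3 FPKM under the combination. The 4 groups overlapped, with a difference of 0.35 ± 0.28 (limma adjusted p = 0.406).

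Of the other beta subunits Psmb1 was called (1.43 ± 0.37, limma adjusted p = 0.0357), with 63.5, 136, 69.9 and 160.2 FPKM in the combination and 49.7, 32.3, 16.6 and 63.6 FPKM in vehicle. Psmb2, by contrast, held 86.8, 87.9, 76.2 and 87.2 FPKM in the combination and 84.4, 55.2, 26.0 and 84.5 FPKM in vehicle, and vehicle replicates 1 and 4 were level with the treated libraries (limma adjusted p = 0.20). Psmb3 reached 183 and 203 FPKM in combination replicates 2 and 4 and 98.1 and 91.2 FPKM in the other two, and its adjusted p was 0.0591. Psmb4, with the smallest difference of the ring (ENSMUSG00000005779.12, chr3:94884093-94886961, minus strand), stood at 137, 98.0, 66.7 and 107 FPKM in the 4 vehicle libraries, 104, 89.6, 110.0 and 112 FPKM under anti-PD-L1, 126, 139, 102 and 203 FPKM under sonidegib and 126, 139.6, 95.8 and 119 FPKM under the combination. The groups overlapped, and the difference of 0.26 ± 0.28 (limma adjusted p = 0.533) turned to −0.09 under median-of-ratios scaling.

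**Figure D2:**
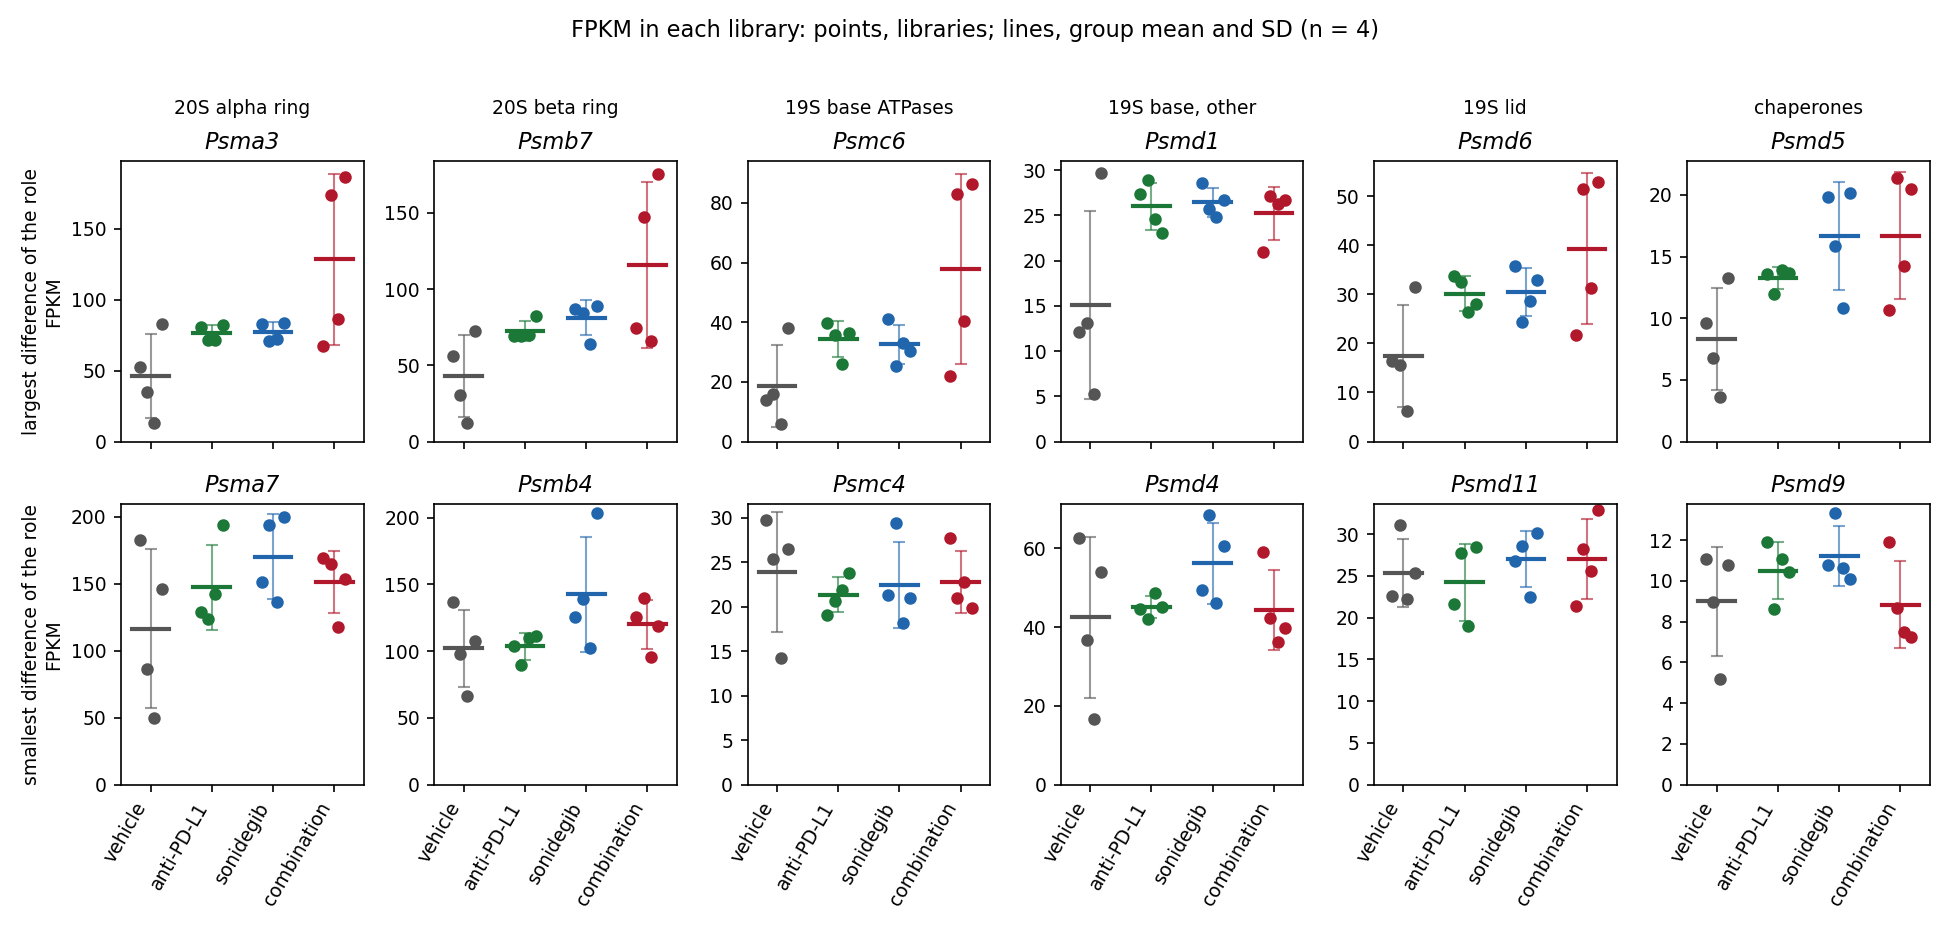
FPKM per library for the gene of each role with the largest (top) and smallest (bottom) absolute log2 difference between combination and vehicle; points are libraries, lines the group mean and SD (n = 4), and each vertical axis starts at 0. In Psma3, Psmb7, Psmc6 and Psmd6 the combination group splits into 2 high and 2 lower libraries and still overlaps the vehicle group. In the bottom row all groups overlap as well.

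Among the base ATPases, which thread the substrate into the core, Psmc6 had the largest difference of all 35 genes. Psmc6 (ENSMUSG00000021832.8, chr14:45329788-45349705, plus strand) stood at 13.8, 16, 6.01 and 38.1 FPKM in the 4 vehicle libraries, 39.8, 35.8, 25.8 and 36.4 FPKM under anti-PD-L1, 41.2, 25.4, 33.1 and 30.5 FPKM under sonidegib and 21.9, 83.1, 40.3 and 86.2 FPKM under the combination. Combination replicates 2 and 4 were above all other libraries, replicate 1 lay within the vehicle range, and the difference was 1.66 ± 0.44 (limma adjusted p = 0.0357). Psmc4 (ENSMUSG00000030603.16, chr7:28041707-28050101, minus strand) stood at 29.7, 25.4, 14.2 and 26.4 FPKM in the 4 vehicle libraries, 19.1, 20.7, 21.8 and 23.7 FPKM under anti-PD-L1, 21.3, 29.4, 18.2 and 21 FPKM under sonidegib and 27.7, 20.9, 22.8 and 19.8 FPKM under the combination. The groups overlapped, the difference of −0.03 ± 0.24 was not called (limma adjusted p = 0.945), and its sign turned when single libraries were left out.

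The ATPase Psmc5 varied without regard to group, at 95.0 FPKM in vehicle replicate 4 and 96.3 FPKM in anti-PD-L1 replicate 3 against 53.9 FPKM or less elsewhere. Psmc1, Psmc2 and Psmc3 were not called, with adjusted p of 0.0822, 0.0880 and 0.143. Psmc1 and Psmc2 were even across the treated tumours: the 4 combination libraries held Psmc1 at 35.7, 38.3, 36.2 and 37.7 FPKM and Psmc2 at 25.6, 27.4, 26.7 and 28.4 FPKM.

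The remaining base subunits were not called. Psmd1, the larger scaffold (ENSMUSG00000026229.17, chr1:86064387-86139151, plus strand), stood at 12.2, 13.1, 5.23 and 29.7 FPKM in the 4 vehicle libraries, 27.4, 28.9, 24.6 and 23.1 FPKM under anti-PD-L1, 28.6, 25.7, 24.8 and 26.6 FPKM under sonidegib and 20.9, 27.1, 26.2 and 26.7 FPKM under the combination. Vehicle replicates 1 to 3 were below all treated libraries while vehicle replicate 4 was the highest of the 16, and the difference was 0.93 ± 0.33 (limma adjusted p = 0.0631). Psmd4, a ubiquitin receptor (ENSMUSG00000005625.15, chr3:95032694-95042614, minus strand), stood at 62.7, 36.7, 16.6 and 54.0 FPKM in the 4 vehicle libraries, 44.5, 42.1, 48.7 and 45 FPKM under anti-PD-L1, 49.4, 68.6, 46.2 and 60.5 FPKM under sonidegib and 59.1, 42.2, 36.3 and 39.9 FPKM under the combination. The groups overlapped, and the difference of 0.19 ± 0.32 (limma adjusted p = 0.704) turned to −0.15 under median-of-ratios scaling. Psmd2, the second scaffold, held 54.6, 51.6, 50.0 and 53.3 FPKM in the combination, and its adjusted p was 0.323.

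In the lid only Psmd6 was called, 1 of 8. Psmd6 (ENSMUSG00000021737.4, chr14:14112174-14120984, minus strand) stood at 16.4, 15.7, 6.18 and 31.5 FPKM in the 4 vehicle libraries, 33.7, 32.5, 26.3 and 28.0 FPKM under anti-PD-L1, 35.7, 24.4, 28.7 and 32.8 FPKM under sonidegib and 21.7, 51.5, 31.2 and 52.9 FPKM under the combination. The combination again held 2 high libraries, replicates 2 and 4, and the difference was 1.23 ± 0.36 (limma adjusted p = 0.0409). Psmd11 (ENSMUSG00000017428.16, chr11:80428615-80473248, plus strand) was the most even gene of the particle, with a highest value 1.73 times the lowest. It stood at 22.6, 31.1, 22.3 and 25.3 FPKM in the 4 vehicle libraries, 21.7, 27.8, 19 and 28.5 FPKM under anti-PD-L1, 26.8, 28.6, 22.5 and 30.2 FPKM under sonidegib and 21.4, 28.2, 25.6 and 32.9 FPKM under the combination. No group stood out, and the difference of 0.09 ± 0.22 (limma adjusted p = 0.812) turned to −0.26 under median-of-ratios scaling.

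Other lid subunits differed from these patterns. Psmd3 had the lowest difference of the 35 genes, at 43.6, 25.4, 27.9 and 22.9 FPKM in the combination and 49.1, 33.9, 18.4 and 35.2 FPKM in vehicle, with combination replicates 2 and 4 the lowest of the 16 libraries but for vehicle replicate 3. Its difference was −0.15 ± 0.28 (limma adjusted p = 0.737), and it was called lower only with libraries weighted by their spread. Psmd12 fell into a high and a low range within every group, at 61.0, 23.6, 8.86 and 73.7 FPKM in vehicle, 28.2, 65.0, 70.6 and 34.6 FPKM under anti-PD-L1, 35.0, 78.4, 78.3 and 33.8 FPKM under sonidegib and 71.8, 38.8, 34.3 and 33.3 FPKM under the combination. Psmd14, the deubiquitinase of the lid, held 26.1, 29.7, 28.8 and 31.5 FPKM in the combination and 18.5, 11.8, 4.66 and 31.6 FPKM in vehicle, a difference of 1.03 ± 0.36 with an adjusted p of 0.0621. Its vehicle replicates 1 to 3 were below all treated libraries and vehicle replicate 4 was level with them. Psmd7, Psmd8 and Psmd13 had adjusted p of 0.115, 0.649 and 0.124.

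Outside the finished particle, the chaperone Psmd5 (ENSMUSG00000026869.12, chr2:34849734-34874968, minus strand) stood at 9.61, 6.80, 3.58 and 13.3 FPKM in the 4 vehicle libraries, 13.6, 11.9, 13.9 and 13.6 FPKM under anti-PD-L1, 19.8, 15.9, 10.8 and 20.2 FPKM under sonidegib and 10.7, 21.4, 14.2 and 20.5 FPKM under the combination. The combination and sonidegib libraries covered nearly the same range, and the difference from vehicle was 1.00 ± 0.31 with the combination (limma adjusted p = 0.0456) and 1.01 ± 0.31 with sonidegib (limma adjusted p = 0.127). Psmd9 (ENSMUSG00000029440.15, chr5:123169413-123250131, plus strand) stood at 11.1, 8.95, 5.20 and 10.8 FPKM in the 4 vehicle libraries, 11.9, 8.63, 11.1 and 10.4 FPKM under anti-PD-L1, 10.8, 13.3, 10.6 and 10.1 FPKM under sonidegib and 11.9, 8.68, 7.51 and 7.25 FPKM under the combination. The combination replicates 2 to 4 lay below vehicle replicates 1, 2 and 4, and the difference was 0.00 ± 0.23 (limma adjusted p = 0.998), turning to −0.31 under median-of-ratios scaling. The row of Psmd10, also known as gankyrin, carries the identifier ENSMUSG00000116430.1, which the annotation used here does not hold, so its position and GC content are not given. It held 3.35, 4.84, 3.46 and 5.39 FPKM in the combination and 1.91, 1.70, 0.8286 and 4.65 FPKM in vehicle, with vehicle replicate 4 in the range of the combination, and its adjusted p was 0.0595. Psmc3ip (ENSMUSG00000019303.14, chr11:101091823-101095436, minus strand) stood at 4.08, 4.25, 1.56 and 5.85 FPKM in the 4 vehicle libraries, 6.98, 5.95, 5.79 and 5.36 FPKM under anti-PD-L1, 9.34, 6.64, 7.69 and 10.1 FPKM under sonidegib and 5.79, 9.79, 7.82 and 11.7 FPKM under the combination. Every sonidegib library and 3 of the 4 combination libraries were above all vehicle libraries, patterns whose share over all tested genes was not counted. The difference with the combination was 1.03 ± 0.27 (limma adjusted p = 0.0357).

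**Figure D3:**
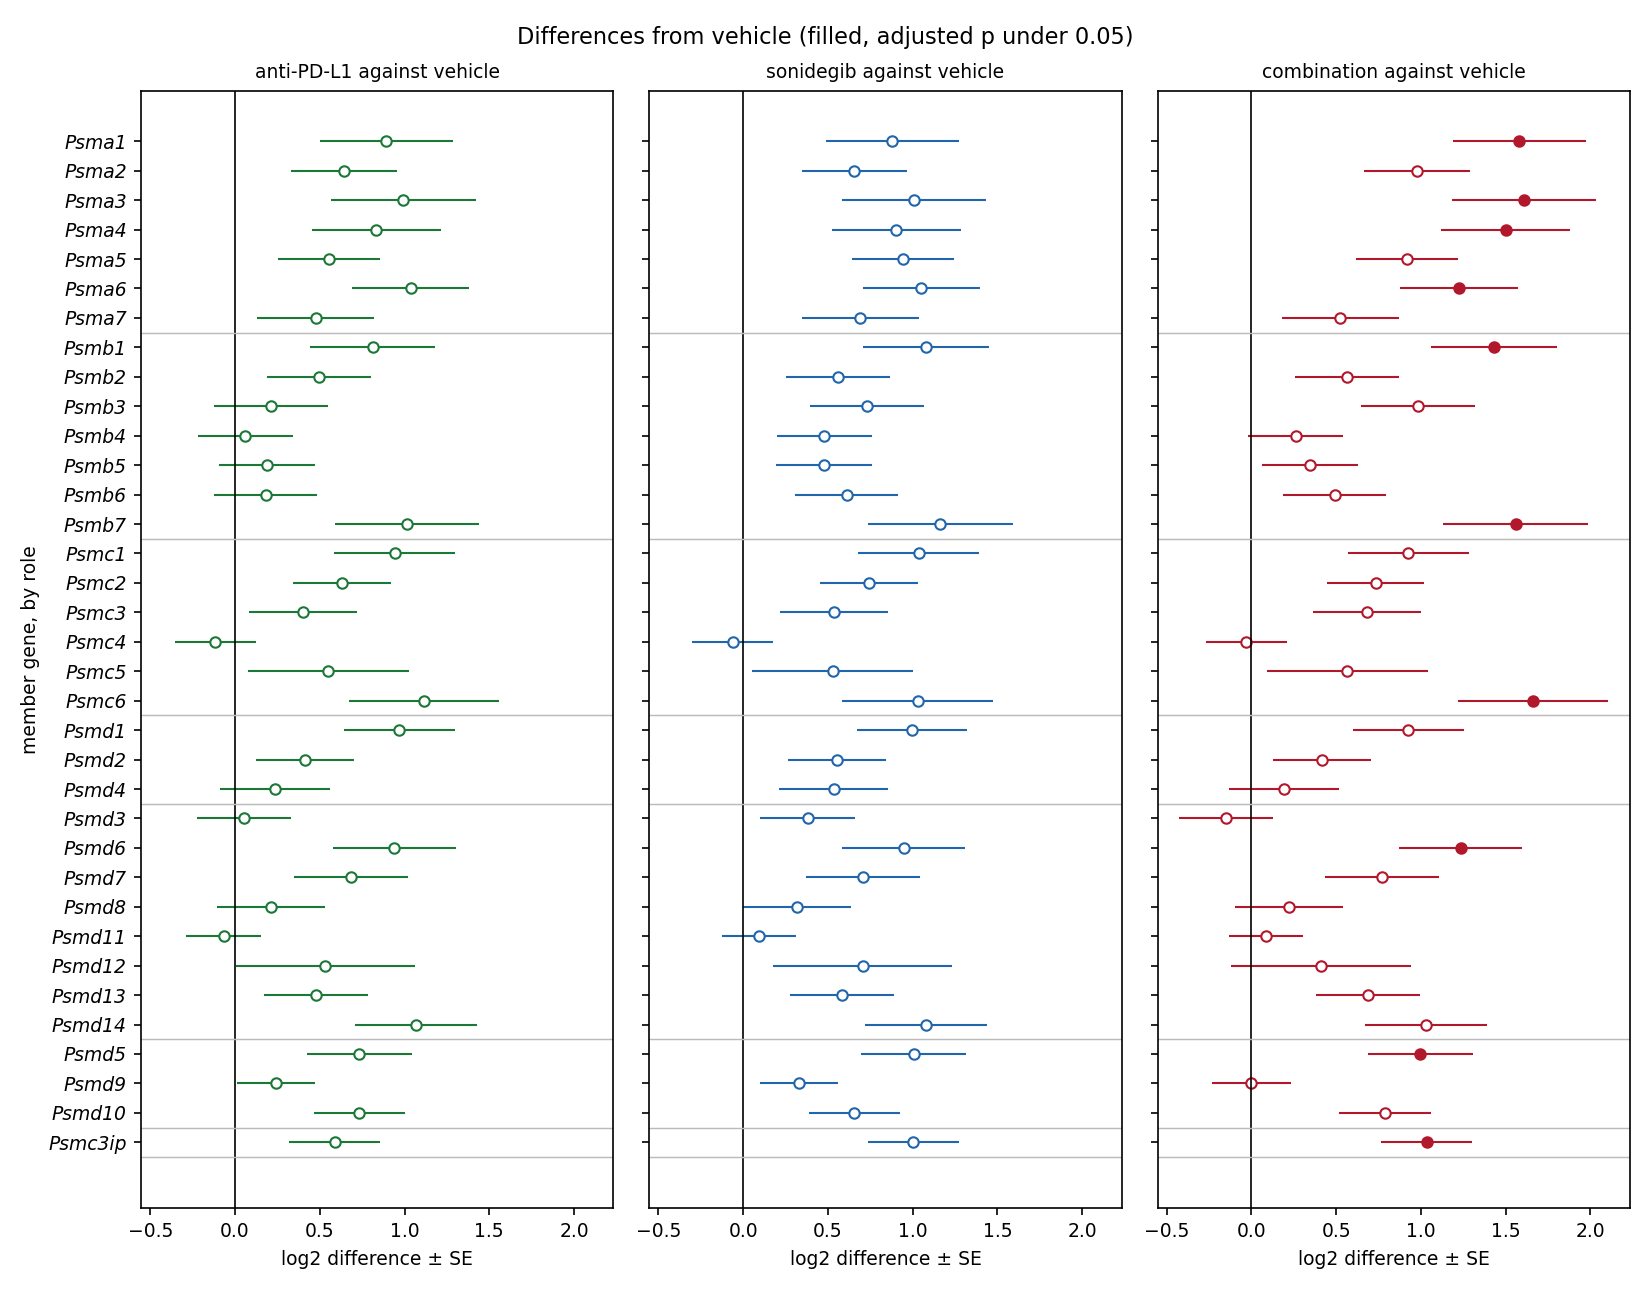
Log2 differences from vehicle with their standard errors for the 35 tested genes, by role, in the 3 treated groups; filled points passed an adjusted p of 0.05. Only the combination has filled points, 10 in all, and in the 3 panels most genes lie above 0, as do the medians of all tested genes (0.30, 0.33 and 0.26).

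The 3 comparisons with vehicle share the same 4 vehicle libraries, so their values are given side by side only. On the log2 scale the difference of Psma3 was 0.99 for the antibody, 1.01 for the Smoothened inhibitor and 1.61 for the 2 together. The corresponding values were 1.01, 1.16 and 1.56 for Psmb7, and 1.11, 1.03 and 1.66 for Psmc6. Between the treated groups no proteasome gene was called by limma. The combination against anti-PD-L1 gave 0 of 35 (0.00662% of all genes called), with 1 gene, Psmb3, at an unadjusted p under 0.05 (5.78% of all genes). The median log2 difference was 0.16 beside −0.05 over all genes. The combination against sonidegib gave 0 of 35 (0% of all genes), with 0 at an unadjusted p under 0.05 (4.28% of all genes) and medians of 0.01 and −0.07. Sonidegib against anti-PD-L1 gave 0 of 35 (0% of all genes), with 0 at an unadjusted p under 0.05 (2.09% of all genes) and medians of 0.11 and 0.01.

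The interaction of the 2 agents, that is the combination effect minus the sum of the single effects, was called for 0 of 35 genes by limma (0.00662% of all genes). An unadjusted p under 0.05 was found for 2 of the 35, beside 9.88% of all genes. The median interaction was −0.55 over the proteasome genes and −0.35 over all genes. Without vehicle replicate 3 these medians were −0.13 and −0.17, and under median-of-ratios scaling −0.06 and 0.03. The test across all 4 groups called 0 of 35 (0.0199% of all genes), with 17 at an unadjusted p under 0.05 (23.7% of all genes). The smallest adjusted p by limma, 0.162, was shared by Psma1, Psma4, Psma6, Psmb1 and Psmc3ip. The count of calls was 17 without vehicle replicate 4 and 8 without combination replicate 1, in fits that called 22.2% and 12.2% of all genes.

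In FPKM not scaled to total FPKM, combination replicates 2 and 4 held the 2 highest of the 16 values for 13 of the 35 genes. Over all tested genes the share was 12.4%, and the count was made after the pattern was seen. The 13 were Psma1, Psma2, Psma3, Psma4, Psma6, Psmb1, Psmb3, Psmb7, Psmc3, Psmc6, Psmd5, Psmd6 and Psmd10, that is 8 of the 14 tested core subunits and 3 of the 17 regulatory subunits. The summed FPKM of the core divided by that of the regulatory particle, a ratio within a library that no scaling of a library changes, was 2.50 and 2.66 in these 2 libraries and 1.68 and 1.78 in combination replicates 1 and 3. It was 1.78, 1.66, 1.98 and 1.41 in vehicle, 1.80, 1.51, 1.55 and 1.97 under anti-PD-L1 and 1.88, 1.70, 1.66 and 2.35 under sonidegib. So sonidegib replicate 4 came next, and the 4 groups overlapped. The alpha ring sum was 132 to 491 FPKM in vehicle and 465 to 855 FPKM in the combination, while the lid sum was 97.4 to 343 and 259.6 to 319 FPKM.

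Some other properties were also high in combination replicates 2 and 4, and others were not. The summed level of mitochondrially encoded transcripts was 44952 and 40978 FPKM in combination replicates 2 and 4, and 6450.0 to 33433 FPKM in the other 14. Total FPKM, to which these sums were not scaled, was 1311120 and 1187920 in the same 2 libraries. It was 866512 in vehicle replicate 4, which held the 33433. The 7 T cell markers, of which 3 could be tested, summed to 19.9 and 23.1 FPKM there, with 1.37 to 3.61 in vehicle, 4.39 to 8.64 with the antibody and 1.72 to 7.16 with sonidegib. In the lowest combination library the T cell sum was 2.34 FPKM. The 6 fibroblast markers summed to 422 and 376 FPKM there and to 91.3 to 119 FPKM in vehicle, 92.2 to 245 FPKM under anti-PD-L1 and 101 to 197 FPKM under sonidegib. In the combination against vehicle 3 T cell markers (Cd3g, Trac and Trbc2), 4 of 6 fibroblast markers (Pdgfra, Dcn, Lum and Postn) and 2 of 6 macrophage markers (Ccr2 and Mrc1) rose. Fabp4, the only tested marker of the 4 adipocyte markers, rose too. Of the other markers 0 of 6 epithelial, 0 of 3 endothelial and 0 of 3 muscle markers were called, and the share called over all tested genes was 11.3%. No marker was at 0 in every library. The part of these in the proteasome values was not tested.

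The difference between combination and vehicle also moved with base composition. The log2 slope of a library on GC content, per 10 points of GC, was 0.47, 0.35, 0.37 and −0.05 in the 4 vehicle libraries. In the 4 combination libraries it was 0.22, −0.33, −0.29 and −0.40. Combination replicates 4 and 2 had the lowest slopes of all libraries, and vehicle replicates 1 to 3 the highest. Across the 34 genes with a known transcript, Pearson's r between GC content (37 to 57.1%) and the log2 difference was −0.74, and over 14893 tested genes it was −0.49; genes of one set of libraries are no independent replicates. Of the 17 members with the lower GC content 9 were called, with a median difference of 1.03, beside 18.8% called and a median of 0.57 among all genes in that GC range. Of the 17 with the higher GC content 1 was called, with a median of 0.49, beside 4.89% and 0.08. With the trend removed, the log2 difference was 0.93 (limma adjusted p = 0.0718) for Psma3, 1.15 (limma adjusted p = 0.0532) for Psmb7 and 0.97 (limma adjusted p = 0.0616) for Psmc6.

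**Figure D4:**
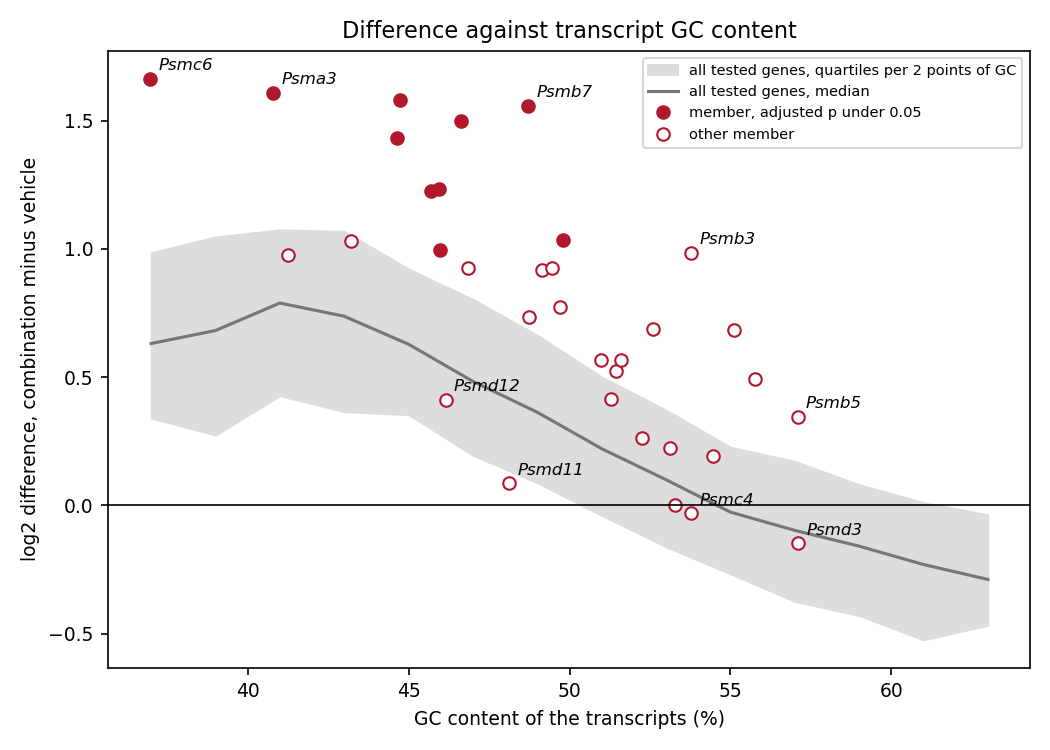
Log2 difference between combination and vehicle against transcript GC content for 34 member genes (points, filled where adjusted p was under 0.05), with the median and quartiles of all tested genes in steps of GC content. Of the 10 called genes, 9 lie among the 17 members of lower GC content, and most members lie above the median of all genes of like GC content.

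Each promoter motif shown was found among called and uncalled genes. The antioxidant response element core lies close to the start in Psmb5, Psmb6 and Psmd9, which were not called, and far upstream in Psmc6, which was called, and in Psmd12, which was not. The ETS motif was present in Psmd6 and, after the start, in Psma6, both called, and in Psmc1, Psmc2, Psmd12 and Psmd13, which were not. CCAAT was present in Psma1, Psma3, Psma6 and Psmc3ip, all called. It was also present in Psma2, Psma7, Psmb3, Psmc1, Psmc2, Psmd4, Psmd10 and Psmd14, which were not called, and in Psmb11, which was not tested.

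Of 47 tested genes that act with or on the particle, 6 were called between combination and vehicle, all higher, a share of 12.8% beside the 11.3% of all tested genes. Of 9 further subunits and assembly factors, 3 rose: the small lid subunit Sem1 (1.41 ± 0.39, limma adjusted p = 0.0369) and the chaperones Psmg2 (1.20 ± 0.33, limma adjusted p = 0.0369) and Psmg4 (0.91 ± 0.29, limma adjusted p = 0.0483). Sem1 repeated the split of the group, at 30.9, 86.7, 38.4 and 92.7 FPKM in the combination and 20.4, 19.9, 9.35 and 43.6 FPKM in vehicle. Pomp, the maturation factor of the core, was at 68.4, 109, 55.3 and 104 FPKM in the combination and 62.9, 55.0, 27.6 and 54.8 FPKM in vehicle (0.74 ± 0.29, limma adjusted p = 0.0826). Of the 12 genes of the transcription factor route 1 rose, the NF-Y subunit Nfyb (1.30 ± 0.35, limma adjusted p = 0.0365). Nfe2l1 itself stood at 50.7, 47.2, 22.5 and 50.8 FPKM in the 4 vehicle libraries, 40.1, 38.1, 46.6 and 29.4 FPKM under anti-PD-L1, 39.8, 54.9, 42.9 and 49.6 FPKM under sonidegib and 49.9, 31.9, 31.7 and 36.8 FPKM under the combination, with overlapping groups and a difference of −0.14 ± 0.28 (limma adjusted p = 0.755).

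Of 6 tested targets of the related factor NFE2L2 outside the proteasome, such as Nqo1 and Hmox1, 0 were called by limma (0 at an unadjusted p under 0.05), with a median difference of 0.27. Of 13 ubiquitin genes, shuttle factors and deubiquitinases 1 rose, Rps27a, which encodes ubiquitin fused to a ribosomal protein (1.30 ± 0.40, limma adjusted p = 0.0450). Of 4 tested activators and inhibitors 0 were called by limma, with 2 (Psme1 and Psme4) at an unadjusted p under 0.05. Psme1, an interferon-induced cap subunit, was at 81.0, 81.0, 97.7 and 81.6 FPKM in the combination and 66.6, 37.2, 21.2 and 66.4 FPKM in vehicle, all combination libraries above all vehicle libraries (0.96 ± 0.31, limma adjusted p = 0.0503). It passed the threshold under median-of-ratios scaling (0.61, limma adjusted p = 0.0498) and with the GC trend removed (0.82, limma adjusted p = 0.0473). Psme2 was not tested, since its row stayed under 1 FPKM and carries an identifier that the annotation used here does not hold.

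The immunoproteasome subunits that replace Psmb5, Psmb6 and Psmb7 are Psmb8, Psmb9 and Psmb10. Psmb9 rose with the combination, at 22.0, 53.2, 82.7 and 65.9 FPKM against 19, 24.9, 17.9 and 26.1 FPKM in vehicle (1.18 ± 0.36, limma adjusted p = 0.0433). Psmb8 (0.57 ± 0.33, limma adjusted p = 0.229) and Psmb10 (0.87 ± 0.29, limma adjusted p = 0.0561) were not called. The FPKM of Psmb8 divided by that of Psmb5 was 1.77, 2.85, 3.24 and 2.50 in the 4 vehicle libraries and 1.99, 2.39, 5.24 and 2.99 in the combination. The ratio of Psmb9 to Psmb6 was 0.0989, 0.202, 0.227 and 0.177 in vehicle and 0.127, 0.275, 0.551 and 0.301 in the combination. The ratio of Psmb10 to Psmb7 was 0.737, 1.03, 1.63 and 0.565 in vehicle, with the highest of the 16 values in vehicle replicate 3, and 0.522, 0.385, 1.29 and 0.388 in the combination. For each of the 3 ratios the combination and vehicle libraries overlapped. Combination replicate 3 held the highest of the 16 values of the first 2 ratios. For Psmb9 to Psmb6, combination replicates 4 and 2 came next, and the highest value outside the combination was 0.245, in anti-PD-L1 replicate 1. For Psmb8 to Psmb5, vehicle replicate 3 came next, and combination replicate 2 lay within the vehicle range. The calls of Psmb9, Sem1, Psmg2, Psmg4, Nfyb and Rps27a were each lost without vehicle replicate 1, 2 or 3 or combination replicate 2 or 4 (limma adjusted p = 0.0534 to 0.161). Under median-of-ratios scaling the calls of Psmb9, Psmg4 and Rps27a were lost too. With the GC trend removed Psmg4 alone of these 6 stayed called, while Sem1 (0.71, limma adjusted p = 0.0990), Psmg2 (0.66, limma adjusted p = 0.0794), Nfyb (0.80, limma adjusted p = 0.0524), Rps27a (0.90, limma adjusted p = 0.0818) and Psmb9 (1.18, limma adjusted p = 0.0672) did not.

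**Figure D5:**
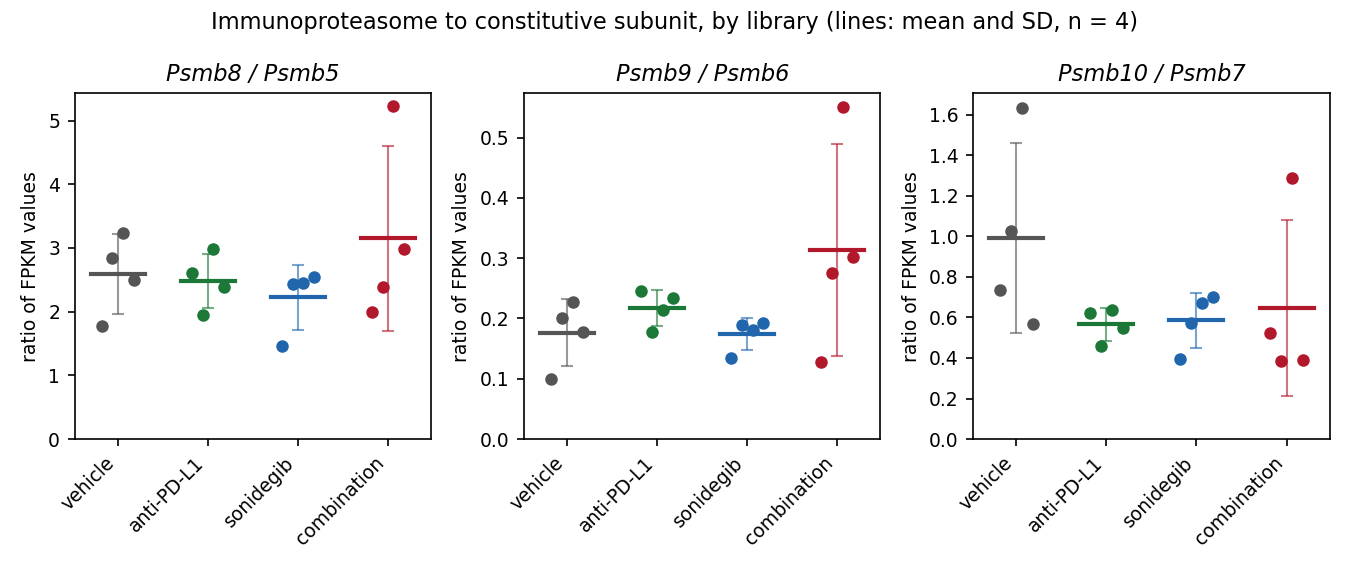
Ratio of the FPKM of each immunoproteasome subunit to that of the constitutive subunit it replaces, by library (points) with the group mean and SD (n = 4). The groups overlap in all 3 panels, and combination replicate 3 is the highest point for Psmb8 to Psmb5 and for Psmb9 to Psmb6.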

How the data were processed

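RNA of 16 tumours, 4 a group, was measured by RNA-seq. Per the labels' protocols ribosomal RNA was removed and strand was kept, while another label gives the molecule as polyA RNA. The authors deposited FPKM values per gene; TopHat and Cufflinks, with the builds mm10 and GRCm38.p6, are named in the submitters' processing notes. Strand use, annotation and tool versions were not found in those notes. FPKM holds no read counts, and its low values gave only a rough estimate of depth, so no count model was used.

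Values were analysed as log2(FPKM + 1) with limma 3.58.1 (R 4.3.3; trend and robust settings) over genes that reached 1 FPKM in 4 or more libraries, with Benjamini-Hochberg adjustment over 15105 genes and a threshold of 0.05. All 4 groups shared one fit. Its rate of false calls with libraries as uneven as these was not tested. Positions, transcript length and GC content came from GENCODE M21 (GRCm38). Members, lists and motifs were chosen with earlier results of these data known. Named were all called members, the active-site subunits, the restricted paralogs, Psmc3ip, the largest and smallest difference of each role, called genes of other lists, and Nfe2l1, Pomp, Psmb8, Psmb9, Psmb10 and Psme1; other genes named were chosen after their values were seen. Alternatives were scaling, quantile normalization, pseudocount 0.1, filters, a replicate block, GC trend removal, sample weights and leaving out each library.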

Additional observations from a re-analysis of the deposited data

Results flagged for a closer look

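Of 192 sets of 4 libraries of one gene, 7 held a library far from the other 3 (Dixon's test at 95%), where chance gives about 1 in 20. Psmb11 was at 0.0147 FPKM in vehicle replicate 4, against 0 FPKM in the other 3 libraries of the group. Psmb2 was at 76.2 FPKM in combination replicate 3, against 86.8 to 87.9 FPKM in the other 3 libraries of the group. Psmb7 was at 82.4 FPKM in anti-PD-L1 replicate 4, against 68.9 to 70.1 FPKM in the other 3 libraries of the group. Psmd1 was at 20.9 FPKM in combination replicate 1, against 26.2 to 27.1 FPKM in the other 3 libraries of the group. Psmd12 was at 71.8 FPKM in combination replicate 1, against 33.3 to 38.8 FPKM in the other 3 libraries of the group. Nfe2l1 was at 22.5 FPKM in vehicle replicate 3, against 47.2 to 50.8 FPKM in the other 3 libraries of the group. Psme1 was at 97.7 FPKM in combination replicate 3, against 81.0 to 81.6 FPKM in the other 3 libraries of the group.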

How the results depend on the processing

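The count of proteasome genes called between combination and vehicle, 10 in the report, was 13, 12, 11 and 10 under median-of-ratios scaling, quantile normalization, a pseudocount of 0.1 and a filter on the mean, and all 10 genes of the report were among those called in each. These fits called 18.4%, 17.4%, 11.8% and 11.2% of all genes. The count was 0 without a filter (0.021% of all genes), 2 with the GC trend removed (3.85%) and 19 with sample weights (38.1%). Of these 19, 18 were higher and 1, Psmd3, was lower. It was 0 (0% of all genes) without combination replicates 2 and 4, an alternative chosen after seeing the data. Leaving out 1 library gave 0 to 22, in fits that called 0.0199% to 33% of all genes. Sample weights gave 18 calls across the 4 groups, 7 for anti-PD-L1 against vehicle, 9 for combination against anti-PD-L1 and 4 for combination against sonidegib, each 0 in the report; 31.1%, 13.4%, 15.2% and 3.91% of all genes were called in these fits. Leaving out 1 library gave 0 to 17 across the 4 groups and 0 to 18 for anti-PD-L1 and for sonidegib against vehicle; vehicle replicate 4 gave the highest of each. The cause was not tested. Sonidegib against anti-PD-L1 and the interaction stayed at 0 under all alternatives run.

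Small differences between combination and vehicle changed sign. Under median-of-ratios scaling and quantile normalization Psmb4 turned to −0.088 and −0.073, Psmd4 to −0.15 and −0.14, Psmd9 to −0.31 and −0.30 and Psmd11 to −0.26 and −0.23 on the log2 scale. With the GC trend removed Psmd9 was −0.10 and Psmd11 −0.36, and with sample weights Psmd4 was −0.19 and Psmd9 −0.25. Without combination replicates 2 and 4 Psmc4 was 0.12 and Psmd11 −0.10. Leaving out 1 library gave −0.25 to 0.087 for Psmc4, −0.19 to 0.43 for Psmd4, −0.21 to 0.11 for Psmd9 and −0.011 to 0.19 for Psmd11. None of these was called in the report.

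No pairing of libraries by replicate number was seen, though such values cannot exclude shared donors or hosts. Of 24 same-numbered pairs, 4 had deviations correlated above 0.1 (median r −0.05), as had 26 of 72 others. With the replicate number as a block, 12 proteasome genes were called between combination and vehicle in place of 10 (7.79% of all genes), and 0 in each other comparison. Psma8 and Psmb11 were too low to test, and the part of depth in this was not tested.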
